A study of Mus musculus with 12 samples.

Results

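Collagens are the main structural proteins of the extracellular matrix, and their genes were examined in whole newborn mouse hearts for H3K27ac, the acetylated histone found at promoters and enhancers in use. The members were all protein-coding RefSeq genes on chromosomes 1 to 19 whose symbol is Col, a number, the letter a and a number. They were chosen by name alone, and 42 of 21887 protein-coding genes on chromosomes 1 to 19, X and Y met the rule. Of the 42 genes, 11 encode chains of fibrillar collagens, 6 chains of basement membrane collagens (types IV, XV and XVIII), and 25 the beaded filament, fibril-associated, network-forming, transmembrane and remaining types.

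The data were 6 lists of called H3K27ac peaks, 1 per heart, from postnatal day 0. Wild-type hearts (WT 1, 3 and 4, n = 3) were set against hearts of newborns with a cardiomyocyte-specific RXRab-/- genotype (edKO 1, 3 and 6, n = 3). RXR genes encode retinoid X receptors, which bind DNA as partners of other nuclear receptors, and the series concerns metabolic maturation of the newborn heart. The promoter that drives the deletion, the sex of the hearts and any shared litter are not given in the labels. All cell types of the heart are in each sample, and by its label the deletion affects cardiomyocytes alone.

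A collagen molecule is a triple helix of 3 chains. Fibrillar chains assemble into the fibrils that carry tension, type IV chains form the sheet under endothelium and around cardiomyocytes, and fibril-associated and beaded filament collagens link these structures to each other and to cells. In the heart, fibroblasts make most of the fibrillar collagen, while endothelial and mural cells make much of type IV. Other members belong mainly to cartilage, skin or nerve, so the symbols alone do not mark a gene as one of cardiac fibroblasts.

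The sequences just before the annotated starts of 6 members are shown because they set members whose start was called in all 6 hearts beside members whose start was called in none. They are the 250 bases before the start, 5′ to 3′, from RefSeq (GRCm38.p6, the same build as mm10). Capitals mark 4 motifs that were searched on both strands and do not contain each other. The TATA box was spelled TATAAA, which on the opposite strand reads as TTTATA. The second motif was CCAAT, and its reverse complement is the run ATTGG. The GC box was spelled GGGCGG, which on the opposite strand reads as CCGCCC. Last came AGGTCA, the core element bound by nuclear receptors of the RXR family and their partners, and its reverse complement is the run TGACCT. The first 3 starts were called in all 6 hearts.
Col1a2 (chr6:4505368-4505617, plus strand): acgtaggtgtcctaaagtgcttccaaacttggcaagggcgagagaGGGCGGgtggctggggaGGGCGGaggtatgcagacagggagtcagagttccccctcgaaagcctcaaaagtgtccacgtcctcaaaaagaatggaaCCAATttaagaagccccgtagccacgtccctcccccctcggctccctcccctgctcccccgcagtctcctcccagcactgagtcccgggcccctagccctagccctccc
Col3a1 (chr1:45311288-45311537, plus strand): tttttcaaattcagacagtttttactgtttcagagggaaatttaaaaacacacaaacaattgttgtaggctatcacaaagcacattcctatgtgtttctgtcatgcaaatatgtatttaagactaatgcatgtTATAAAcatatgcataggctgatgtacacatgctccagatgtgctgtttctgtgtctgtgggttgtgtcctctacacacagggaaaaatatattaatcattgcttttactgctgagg
Col6a1 (chr10:76726045-76726294, minus strand): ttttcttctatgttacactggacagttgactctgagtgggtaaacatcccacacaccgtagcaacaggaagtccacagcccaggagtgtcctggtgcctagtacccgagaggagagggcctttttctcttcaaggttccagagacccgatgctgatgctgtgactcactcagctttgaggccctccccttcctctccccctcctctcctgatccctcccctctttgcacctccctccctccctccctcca
The other 3 starts were called in no heart.
Col10a1 (chr10:34389731-34389980, plus strand): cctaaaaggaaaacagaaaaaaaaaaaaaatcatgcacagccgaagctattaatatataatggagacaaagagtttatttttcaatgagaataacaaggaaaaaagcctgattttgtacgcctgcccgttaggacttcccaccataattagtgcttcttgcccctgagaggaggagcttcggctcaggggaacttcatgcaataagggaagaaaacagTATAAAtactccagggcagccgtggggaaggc
Col7a1 (chr9:108953336-108953585, plus strand): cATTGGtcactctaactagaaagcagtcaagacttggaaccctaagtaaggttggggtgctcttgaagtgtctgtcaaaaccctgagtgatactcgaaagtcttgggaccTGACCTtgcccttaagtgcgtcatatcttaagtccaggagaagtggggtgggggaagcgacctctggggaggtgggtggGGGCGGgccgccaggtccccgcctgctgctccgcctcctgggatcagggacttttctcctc
Col8a2 (chr4:126286544-126286793, plus strand): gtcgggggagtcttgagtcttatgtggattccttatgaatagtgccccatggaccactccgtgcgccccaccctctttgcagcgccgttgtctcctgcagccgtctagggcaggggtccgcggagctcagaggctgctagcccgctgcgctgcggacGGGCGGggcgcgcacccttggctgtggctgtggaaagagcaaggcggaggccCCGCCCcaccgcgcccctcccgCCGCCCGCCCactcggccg
Both groups held a start with TATAAA and a start with GGGCGG, and Col6a1 had none of the 4 motifs.

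The promoter table had a start for 33 of the 42 members. It had none for Col1a1, Col2a1, Col4a3, Col5a2, Col9a3, Col12a1, Col14a1, Col22a1 and Col26a1. A start was taken as called when a region overlapped the 250 bases before it or the 50 after it. Where a gene had several annotated starts, the start called in most hearts counted. By this measure 13 of the 33 (39.4%) were called in all 6 hearts, 13 (39.4%) in none and 7 in 1 to 5 hearts. Among all 17492 protein-coding genes with a start, 50.8% were called in all hearts and 42.4% in none. The 13 members called throughout were the fibrillar genes Col1a2, Col3a1, Col5a1 and Col27a1, the basement membrane genes Col4a1, Col4a2, Col15a1 and Col18a1, and Col6a1, Col6a2, Col16a1, Col23a1 and Col25a1. By class, the start was called in all hearts for 4 of 8 fibrillar, 4 of 5 basement membrane and 5 of 20 other members. In the 250 bases before the start, TATAAA was found in 15.2% of members (13.7% of all genes), CCAAT in 36.4% (39.5%), GGGCGG in 57.6% (45.8%) and AGGTCA in 24.2% (14.6%). The AGGTCA match was present in 8 members, of which only Col23a1 had a start called in all 6 hearts. These matches describe letters in the sequence, not bound sites.

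The length in base pairs under called regions was summed over a window, the gene body with flanks of 10 kb. By this measure 32 members had a mean of at least 500 bp over the 6 hearts and entered the test, and all 32 had called length in each heart. Of all 21887 protein-coding genes, 14317 met the same limit. The last member inside this limit was Col2a1 (mean 526 bp) and the first outside was Col8a1 (478 bp). Col8a1, Col9a2, Col10a1 and Col11a1 had some called length but less than the limit. Col9a2, a cartilage collagen, had 250 and 510 bp in WT 3 and WT 4, 296 bp in edKO 6 and 0 bp in the other 3 hearts. Col8a1, a network-forming collagen of vessels and valves, had 1064, 1019 and 270 bp in WT 1, 3 and 4, against 0, 0 and 513 bp in edKO 1, 3 and 6. No peak was called in any heart at Col6a4, Col6a5, Col9a1, Col19a1, Col20a1 and Col22a1, which were therefore not marked at the authors' threshold.

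The group is labelled as genes of cardiac fibroblasts, but lists from whole hearts do not tell which cells carry a called region. All 11 cardiomyocyte and all 11 endothelial markers were marked in every heart. Of 12 fibroblast markers 9 were marked in every heart, among them Pdgfra, Tcf21, Dcn, Lum and Ddr2. The other 3 were at 0 bp in some hearts: Thy1 in 4 hearts, Scara5 in WT 1 and edKO 3, and Fbln1 in WT 1. Of the collagen genes, 10 had no peak or a mean under 500 bp, among them the cartilage genes Col9a1, Col10a1 and Col11a1. Other collagen genes known from cartilage had called length in their window in every heart, with 360 to 672 bp at Col2a1 and 4451 to 9077 bp at Col27a1. Inside its own body, however, Col2a1 had 0 bp in WT 1 and 339 to 609 bp in the other hearts. Of 10 cartilage markers, Matn1, Snorc and Cnmd were at 0 bp in all 6 hearts, and 5 were marked enough to be tested. Of 7 epithelial markers, Epcam, Krt5 and Krt14 were at 0 bp in all hearts, while Krt8, Krt18, Cdh1 and Trp63 had called length in some. Krt18, the one of these that was tested, had 1131, 1834 and 1121 bp in WT 1, 3 and 4, against 0, 0 and 667 bp in edKO 1, 3 and 6. It did not pass the test (log2 difference -2.14, edKO minus WT, limma adjusted p = 0.407).

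Per length of window, the Col4a2, Col1a1 and Col4a1 loci had the highest mean share over the 6 hearts. Col4a2 was covered over 42.9%, 46.5% and 39.1% of its window in WT 1, 3 and 4 and over 45.6%, 32.7% and 46.5% in edKO 1, 3 and 6. Col4a1 was covered over 27.5%, 29.0% and 20.5% in WT hearts, against 30.5%, 19.9% and 24.5% in edKO. The values of the genotypes overlapped at both loci. Col1a1, one of the chains of type I collagen, was covered over 15.9%, 45.3% and 38.8% in WT hearts, against 24.9%, 24.8% and 35.8% in edKO. Its 3 WT hearts spanned the whole range of the edKO hearts, and in WT 1 it ranked below Col6a2 (18.0%) and Col6a1 (17.6%).

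Col6a1 and Col6a2, chains of the type VI beaded filaments that surround most connective tissue cells, followed. Their mean shares over the 6 hearts were 18.6% and 18.1%. Col7a1 (8.20%), Col3a1 (7.33%), Col16a1 (5.99%) and Col11a2 (5.92%) came next, and Col27a1 (5.02%) and Col1a2 (4.98%) after them. All other tested members had a mean share between 0.398% (Col24a1) and 4.68% (Col6a6). Below 10%, neighbours in this order overlapped in their ranges over hearts, so the order there is not resolved.

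**Figure D1:**
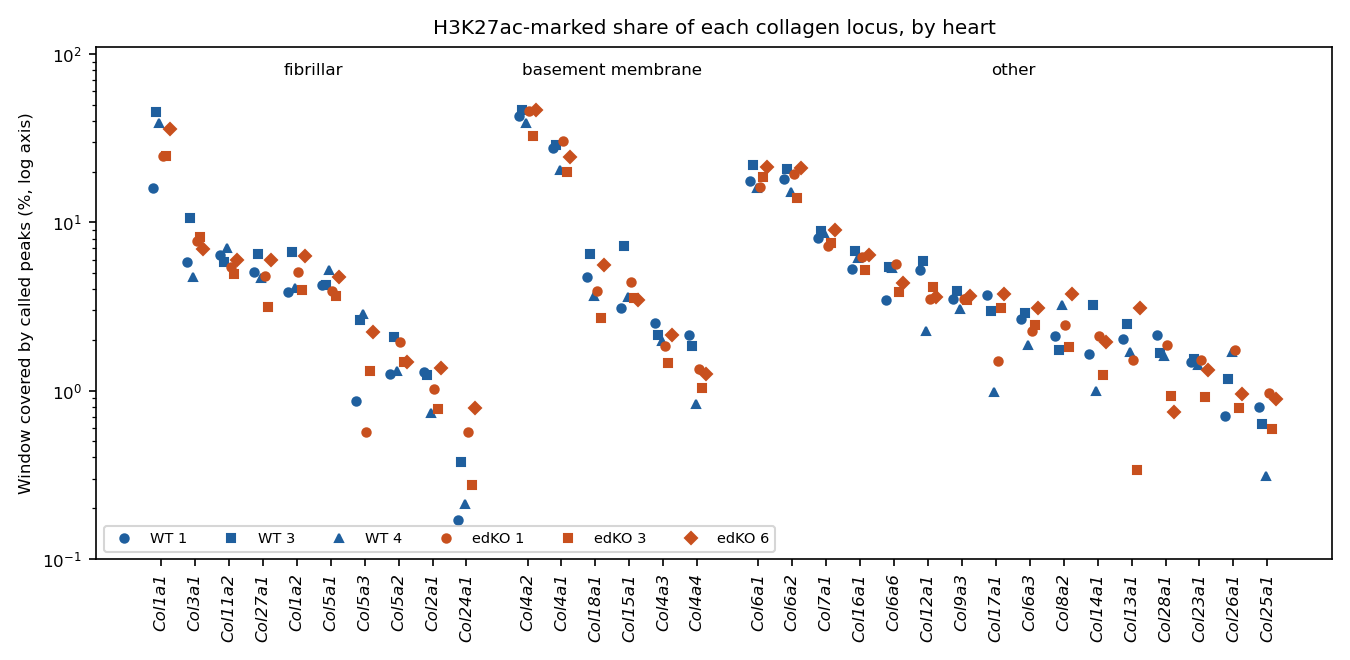
Percent of each collagen window (gene body plus 10 kb on each side) covered by called H3K27ac regions, log axis, for 32 loci in 3 classes; each symbol is 1 heart, WT in blue and edKO in orange. Col4a2, Col4a1 and Col1a1 have the highest means, and WT 1 lies lowest at Col1a1 with 15.9%.

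By class, the median share in WT 1, 3 and 4 was 4.03%, 5.01% and 4.38% for the 10 tested fibrillar members and 3.92%, 6.88% and 3.62% for the 6 basement membrane members. In edKO 1, 3 and 6 it was 4.35%, 3.39% and 5.34% for fibrillar and 4.15%, 3.12% and 4.52% for basement membrane members. Fibrillar members had the higher median in 5 of the 6 hearts, and basement membrane members in WT 3 alone. The 16 other members had lower medians than both in each heart, from 2.07% in WT 4 to 3.61% in edKO 6. Over all 14317 tested loci the median ran from 5.04% to 6.83%, above each collagen class in every heart but WT 3, where basement membrane members had 6.88%. Collagen windows were longer, at a median of 134410 bp against 43546 bp over all tested loci, and the part of window length in this difference was not tested.

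The fold enrichment of each region was used only as a rank within its own list. For each locus the region with the highest fold was placed as a percentile of all regions of that heart. The median of these percentiles was 67.2, 78.1 and 80.9 in WT 1, 3 and 4 for fibrillar members and 69.8, 71.2 and 79.5 in edKO 1, 3 and 6. For basement membrane members it was 80.3, 88.8 and 86.9 in the WT lists, against 85.3, 87.9 and 87.0 in the edKO lists. Basement membrane members ranked above fibrillar members in all 6 hearts, with means over hearts of 86.0 and 74.5. This order was lost with the gene body alone (74.0 for basement membrane and 74.3 for fibrillar members) and with nearest genes alone (74.0 and 74.5). The other members lay between 73.2 and 81.2. All tested loci had a median between 87.9 and 91.8, so the best region of a typical collagen locus ranked below that of a typical marked gene.

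The region across the shared start of Col4a1 and Col4a2 was among the best ranked and widest of the collagen loci. The bodies of Col4a1 (chromosome 8, 11198423 to 11312889, mm10) and Col4a2 (11312805 to 11449287) overlap by 85 bp at their starts, and the annotated transcripts run in opposite directions. The widest region of Col4a1 spanned 11307560 to 11316393 in WT 1 (8834 bp, percentile 89.8). It spanned 11307641 to 11317177 in edKO 1 (9537 bp, percentile 96.1). In the other 4 hearts the region at the start ranked between percentiles 97.2 and 98.9. A wider region lay inside Col4a2 in edKO 1, at 11377595 to 11389479 (11885 bp), and in edKO 6, at 11378894 to 11389903 (11010 bp). Of the regions merged over hearts, 8 fell in the windows of both genes, so their values are not independent. By mean covered length, Col4a2 was number 12 and Col4a1 number 112 of all 21887 genes.

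In called length, Col4a2 had 67117, 72749 and 61119 bp in WT 1, 3 and 4 and 71431, 51140 and 72748 bp in edKO 1, 3 and 6 (log2 difference 0.03, SE 0.08). Col4a1 had 37036, 38930 and 27608 bp in the WT group versus 40991, 26702 and 32938 bp in the edKO group (0.04, SE 0.12). At both genes edKO 3 was the lowest heart, and edKO 3 had the smallest covered length over the whole list. Col18a1, whose chain carries the endostatin fragment, had 6348, 8723 and 4913 bp in the WT group versus 5242, 3643 and 7518 bp in the edKO group. Its values overlapped between genotypes.

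Among the other classes, Col6a1 (chromosome 10, 76708792 to 76726044) had 6554, 8132 and 5961 bp in the WT group versus 6067, 6918 and 7919 bp in the edKO group. Its neighbour Col6a2 (chromosome 10, 76595756 to 76623630) had 8636, 9943 and 7214 bp in the WT group versus 9312, 6682 and 10093 bp in the edKO group. The highest heart was WT 3 for Col6a1 and edKO 6 for Col6a2, and the genotypes overlapped at both. Col7a1 had 4126, 4537 and 4419 bp in the WT group versus 3691, 3861 and 4593 bp in the edKO group. Col16a1, a fibril-associated collagen, had 3747, 4849 and 4399 bp in the WT group versus 4415, 3720 and 4537 bp in the edKO group. The SD among WT hearts on the log2 scale was smaller at each of these 4 genes than at Col1a1 or Col3a1.

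At Col3a1 (chromosome 1, 45311538 to 45349706), the chain of type III collagen, the region at the start ranked at percentiles 63.6, 77.1 and 80.0 in WT 1, 3 and 4, against 71.8, 66.0 and 72.4 in edKO 1, 3 and 6. At Col1a2, whose chain joins that of Col1a1 in type I collagen, the start ranked at 72.7, 79.2 and 78.8 in the WT lists, against 67.8, 65.6 and 69.5 in the edKO lists. Col5a1, a type V chain found within type I fibrils, ranked higher, at 76.8, 90.5 and 90.7 in the WT lists, against 73.3, 88.9 and 84.0 in the edKO lists. WT 1 had the lowest rank among the WT hearts at Col1a2, Col3a1 and Col5a1. It also had the lowest WT median over all tested loci (89.8, against 91.1 in WT 3 and 91.7 in WT 4). Ranks from lists of different length do not show a change between hearts.

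Part of the called length in collagen windows belonged to other genes. Col11a2, Col9a3, Col7a1 and Col10a1 had called length in the window but 0 bp inside their own gene body in every heart. At Col11a2 (chromosome 17, 34038919 to 34066684), a fibrillar chain known from cartilage, 95.7% of the called length lay only in the body of another gene. The other genes in its window are Slc39a7 and Rxrb, the latter being 1 of the 2 targeted receptor genes. Col11a2 had 3056, 2776 and 3347 bp in its window in WT 1, 3 and 4 and 2585, 2363 and 2853 bp in edKO 1, 3 and 6. The best region of this window ranked at percentile 96.9, 97.6 and 99.0 in WT 1, 3 and 4, against 99.0, 98.4 and 99.6 in edKO 1, 3 and 6, which places it among the strongest of each heart although no region was called within Col11a2. At Col7a1, the anchoring fibril collagen of skin, 79.6% lay only in other genes (Pfkfb4, Ucn2 and Uqcrc1 are in the window). At Col9a3 the share was 70.6%, at Col8a2 68.6% and at Col4a3 62.6%.

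**Figure D2:**
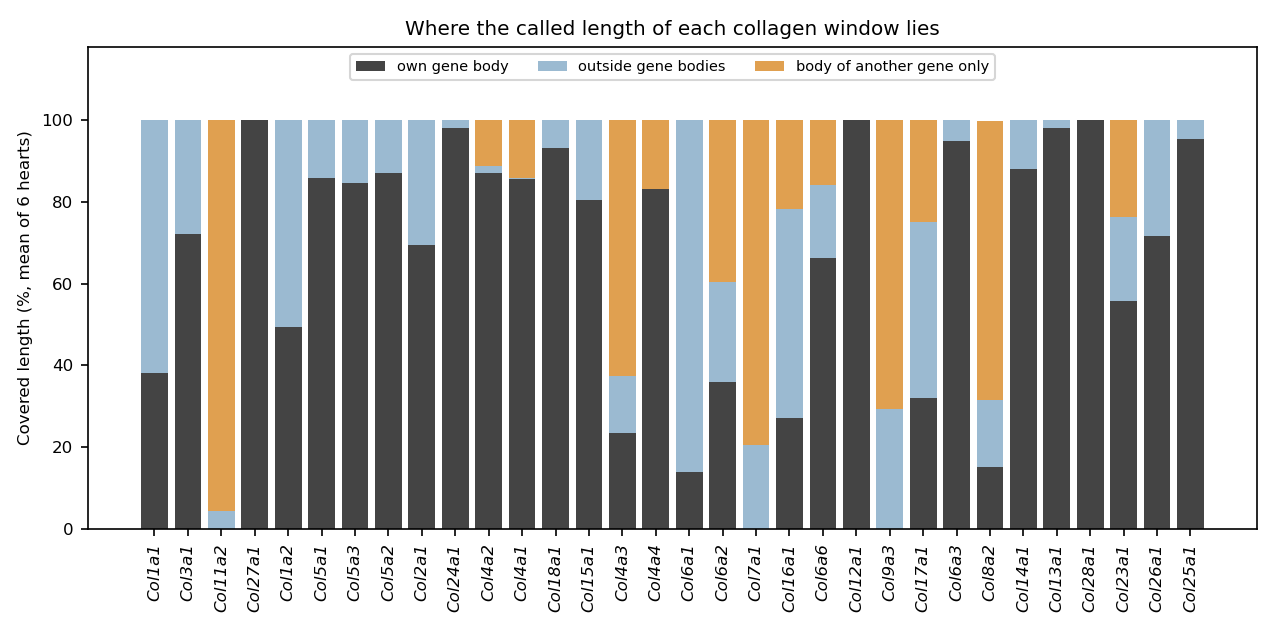
Stacked bars for the 32 tested collagen loci, in percent of the called length in the window (mean of 6 hearts), split into the own gene body, the body of another protein-coding gene only, and sequence outside gene bodies. Col11a2, Col7a1 and Col9a3 have no part in their own body.

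In contrast, Col12a1, Col27a1 and Col28a1 had all their called length inside their own body. At Col6a1 86.2% and at Col1a1 61.9% lay outside all gene bodies, in the 10 kb flanks. The own body of Col6a1 held 756, 1050 and 1014 bp in WT 1, 3 and 4 and 881, 979 and 1061 bp in edKO 1, 3 and 6. The body of Col1a1 (chromosome 11, 94936224 to 94953042) held 834, 7698 and 7504 bp in the WT group versus 2576, 2255 and 5168 bp in the edKO group. WT 1 was thus the lowest of all 6 hearts inside Col1a1 and the other WT hearts were the highest.

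**Figure D3:**
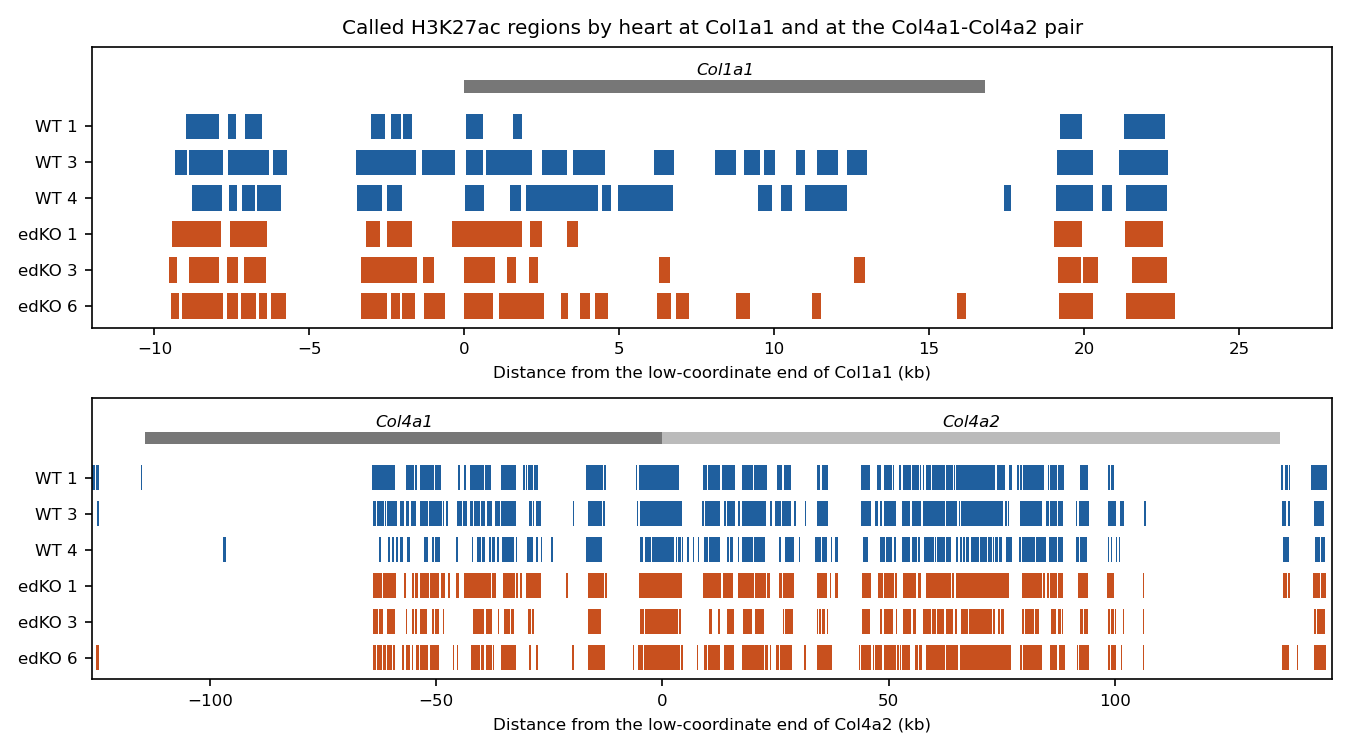
Called regions of each heart as bars (WT blue, edKO orange) at Col1a1 and at the adjoining Col4a1 and Col4a2 genes (grey bars), by distance in kb from the low-coordinate end of Col1a1 or Col4a2. At Col1a1 the flanking regions appear in all 6 hearts, while the gene body holds 834 bp in WT 1 and 7698 bp in WT 3.

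None of the collagen loci passed the test between genotypes. The covered length was compared as log2(bp + 200), centred per heart, with limma over all 14317 loci and Benjamini-Hochberg adjustment. At an adjusted p of 0.05, 0 of 32 collagen loci were lower in edKO hearts (0.105% of all loci) and 0 were higher (0.0% of all loci). At an unadjusted p of 0.05, 0 were lower (4.63% of all loci) and 1 was higher (1.98% of all loci), which was Col24a1. The smallest limma adjusted p of a member was 0.56. The median log2 difference over the 32 loci was 0.05, edKO minus WT, against 0.03 over all tested loci, and 18 of 32 estimates were above 0 (58.4% of all loci). For 25 of the 32 loci the estimate was smaller than its standard error. These values do not show that the genotypes are alike at collagen genes, since the hearts differed widely within a genotype.

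By class, the median log2 difference was 0.01 over 10 fibrillar loci, 0.07 over 16 other loci and -0.15 over 6 basement membrane loci. The basement membrane median came to 0.0046 without WT 3 and to 0.12 with lists of equal length, and 4 of its loci share regions in pairs (Col4a1 with Col4a2, Col4a3 with Col4a4). The fibrillar median was -0.06 without WT 1 and -0.13 without edKO 6, so its sign depended on single hearts.

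Among loci with higher estimates, Col24a1, a fibrillar chain of developing bone and cornea, stood first (chromosome 3, 145292472 to 145552013). It had 479, 1057 and 589 bp in WT 1, 3 and 4 and 1573, 765 and 2213 bp in edKO 1, 3 and 6. The lengths of the genotypes overlapped, and all edKO hearts were above all WT hearts only after centring. The log2 difference was 0.96 (SE 0.31, limma adjusted p = 0.56). Of the 32 loci it alone had every edKO heart higher than every WT heart after centring (3.12%, against 7.11% of all loci). Its start was called in edKO 6 alone.

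Col25a1, a transmembrane collagen of neurons and muscle, had 3518, 2788 and 1372 bp in the WT group versus 4255, 2598 and 3909 bp in the edKO group. The low WT 4 heart stood apart from the others, and the log2 difference was 0.60 (SE 0.26, limma adjusted p = 0.753). It was 0.29 without WT 4 and 0.26 with the replicate block. Col3a1 had 3359, 6190 and 2739 bp in the WT group versus 4482, 4771 and 4039 bp in the edKO group (log2 difference 0.27, SE 0.26). Its WT hearts enclosed all edKO values. Col5a2, a type V chain that lies next to Col3a1 on chromosome 1, had 1867, 3099 and 1958 bp in the WT group versus 2879, 2212 and 2186 bp in the edKO group (0.18, SE 0.18). Col6a3, the long chain of type VI collagen, had 2569, 2792 and 1810 bp in the WT group versus 2184, 2391 and 2987 bp in the edKO group (0.17, SE 0.18). The genotypes overlapped at both.

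Among loci with lower estimates, Col28a1, a collagen known from peripheral nerve, had 4602, 3639 and 3480 bp in the WT group versus 4026, 2014 and 1610 bp in the edKO group. Here edKO 1 lay within the WT range and the other edKO hearts below it (log2 difference -0.58, SE 0.27, limma adjusted p = 0.778). The difference was -0.29 without edKO 6 and -0.86 without edKO 1. Col23a1, a transmembrane collagen, had 4622, 4825 and 4447 bp in the WT group versus 4755, 2873 and 4168 bp in the edKO group (-0.17, SE 0.11). After centring all its edKO hearts were below all WT hearts, the only such locus of 32 (3.12%, against 5.76% of all loci). The uncentred lengths overlapped, with edKO 1 above WT 1 and WT 4. Centred and relative to the locus mean, edKO 1 (0.0455) lay close to WT 1 (0.057). Col13a1, a transmembrane collagen of muscle endplates, had 3245, 3983 and 2743 bp in the WT group versus 2429, 540 and 5002 bp in the edKO group. Its edKO hearts held both the highest and the lowest value (-0.60, SE 0.54). Col4a3, a type IV chain of specialised basement membranes, had 3935, 3308 and 3041 bp in the WT group versus 2863, 2263 and 3320 bp in the edKO group (-0.19, SE 0.13). Inside its own body Col4a3 had 902, 944 and 1323 bp in WT 1, 3 and 4, against 0, 352 and 881 bp in edKO 1, 3 and 6. There every edKO heart was lower than every WT heart in uncentred length, but edKO 6 (881 bp) lay close to WT 1 (902 bp). The share of all loci with such a gap inside the gene body was not counted. With the gene body alone the log2 difference was -1.26 (limma adjusted p = 0.806) and with nearest genes alone -1.34 (limma adjusted p = 0.82). Col27a1, a fibrillar chain of cartilage and other tissues, had 7105, 9077 and 6617 bp in the WT group versus 6788, 4451 and 8409 bp in the edKO group (-0.16, SE 0.16). In the windows of Col4a3 and Col27a1 the edKO 3 heart was lowest and edKO 6 lay within the WT range.

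**Figure D4:**
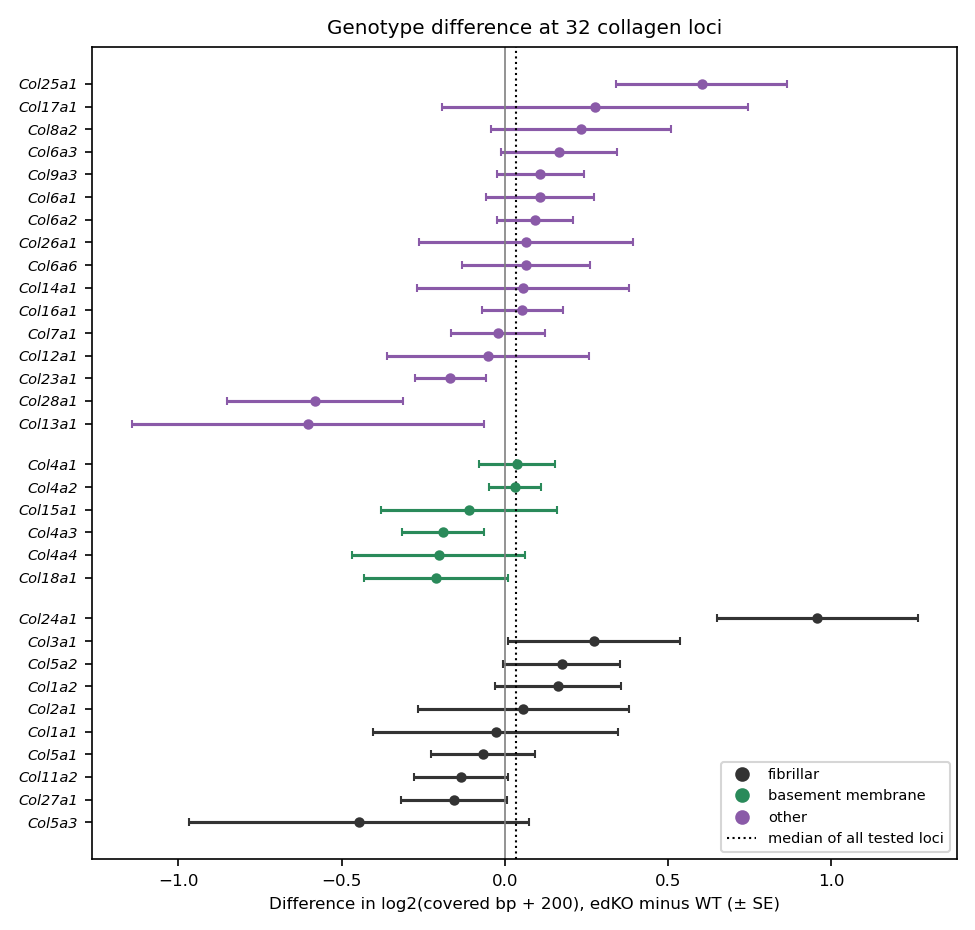
Log2 difference in covered length plus 200 bp, edKO minus WT, with its standard error, for 32 collagen loci coloured by class; the dotted line is the median of all tested loci. Col24a1 has the highest estimate, 0.96, and Col13a1 and Col28a1 the lowest.

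Single regions were compared as well. Merging the 6 lists gave 288 regions in collagen windows, of which 84 (29.2%) were called in all 6 hearts and 105 (36.5%) in a single heart. In the windows of all protein-coding genes these shares were 38.4% and 31.3%. Regions present in every WT list and absent from every edKO list numbered 3, or 1.04%, beside 1.02% of regions over all genes. They lay inside Col12a1 (chromosome 9, 79599484 to 79600761), Col13a1 (chromosome 10, 61848833 to 61849584) and Col18a1 (chromosome 10, 77132008 to 77132795). Their folds ranked between percentiles 23.5 and 61.4 of their lists, so none was among the strong regions. Regions with the reverse pattern numbered 0, beside 0.0609% over all genes.

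In the median over members, hearts of a genotype differed from each other more at collagen loci than at a typical locus. The median SD of the centred log2 level among WT hearts was 0.29 over the 32 members and 0.15 over all tested loci. Among edKO hearts it was 0.20 and 0.16. By class, the median SD in the WT group was 0.34 for fibrillar, 0.24 for basement membrane and 0.20 for other members. The edKO group had 0.24, 0.14 and 0.27, so its basement membrane value was below that over all loci. A wide spread was not particular to collagens. Fibroblast markers had a median SD of 0.37 in WT and 0.25 in edKO, and fibril-binding matrix genes 0.29 and 0.315. Cardiomyocyte markers had 0.12 and 0.16. The widest spread in WT was at Col5a3, Col1a1 and Col17a1 and in edKO at Col13a1, Col5a3 and Col17a1.

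Col5a3, a type V chain, had 565, 1709 and 1849 bp in the WT group versus 367, 853 and 1454 bp in the edKO group. Col17a1, a hemidesmosome collagen of epithelia, had 2431, 1946 and 641 bp in the WT group versus 986, 2029 and 2476 bp in the edKO group. Each locus thus had at least 1 low heart in both genotypes. Col1a1 had 5861, 16691 and 14282 bp in the WT group versus 9172, 9125 and 13199 bp in the edKO group, and its log2 difference had an SE of 0.37. Col15a1, a basement membrane zone collagen, had 3906, 9127 and 4509 bp in WT, where WT 3 stood high, and 5519, 4431 and 4334 bp in edKO. Col14a1, a fibril-associated collagen, had 3866, 7510 and 2328 bp in the WT group versus 4906, 2867 and 4549 bp in the edKO group, and Col12a1, of the same group, 7359, 8356 and 3231 bp and 4969, 5855 and 5125 bp. WT 3 was the highest and WT 4 the lowest heart at both of these fibril-associated genes.

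In the median, fibrillar levels were lowest in WT 1 and highest in WT 3, with edKO 6 close to WT 3. Relative to the mean of the same locus over the 6 hearts, the median fibrillar level on the log2 scale was -0.35 in WT 1, 0.26 in WT 3 and -0.08 in WT 4. It was -0.14, 0.05 and 0.24 in edKO 1, 3 and 6. Over all tested loci these medians lay between -0.03 and 0.05. WT 1 was the lowest WT heart at 6 of 10 fibrillar loci (31.7% of all loci). Of all 6 hearts it was the lowest at 4 of these loci (16.9% of all loci), and edKO 1 was at 3 (14.4%). WT 3 was the highest WT heart at 6 of 10 fibrillar loci and at 17 of 32 members (23.5% of all loci). It was the lowest WT heart at 5 of 32 (35.8%). WT 4 was the highest WT heart at 9 of 32 (43.0% of all loci) and the lowest at 15 (32.5%). The basement membrane median was not low in WT 1, with 0.06, 0.19 and -0.14 in the WT lists, against -0.06, -0.07 and -0.0009 in the edKO lists. Single members differed from their class. Of the 6 basement membrane loci, 1 had its lowest value of all hearts in WT 1 (16.9% of all loci), which was Col15a1 (-0.43). The fibrillar loci Col11a2 (0.04) and Col2a1 (0.15) were above their own mean in WT 1.

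In the median, fibroblast markers that are not collagens were lowest in WT 1 too. The median level of the 10 tested markers was -0.42 in WT 1, 0.22 in WT 3 and 0.13 in WT 4, and -0.03, 0.29 and 0.11 in edKO 1, 3 and 6. WT 1 was the lowest of the 6 hearts at 6 of 10 (16.9% of all loci). WT 4 was the lowest at 3 (18.7% of all loci), which were Dpt, Mfap5 and Pi16, and edKO 1 at Gsn. At these markers the WT 1 level lay between -0.11 (Mfap5) and 0.05 (Gsn). Lum and Fbln1, given below, had the lowest WT 1 levels of the tested markers (-1.34 and -2.79). The summed called length of the 12 markers on the list ran from 45.4 to 66.3 kb in WT and from 46.0 to 57.9 kb in edKO, and none was at 0 bp in all hearts. Lum, a fibril-binding proteoglycan, had 533, 2856 and 2179 bp in the WT group versus 1404, 1976 and 1473 bp in the edKO group. Fbln1, a fibroblast matrix gene, had 0, 3746 and 2013 bp in the WT group versus 895, 761 and 2642 bp in the edKO group. The medians of the cardiomyocyte markers in WT 1, 3 and 4 were 0.06, -0.06 and 0.13, and those of the endothelial markers 0.06, -0.03 and -0.23. The 11 endothelial markers, all covered in each heart, summed to 103.7 to 132.3 kb in WT and 91.1 to 139.1 kb in edKO. Their low WT value was in WT 4, where the basement membrane median was low too. In whole hearts, fewer fibroblasts, less of the mark per fibroblast and a difference in depth or calling between lists cannot be told apart. The part of each in the collagen values was not tested.

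**Figure D5:**
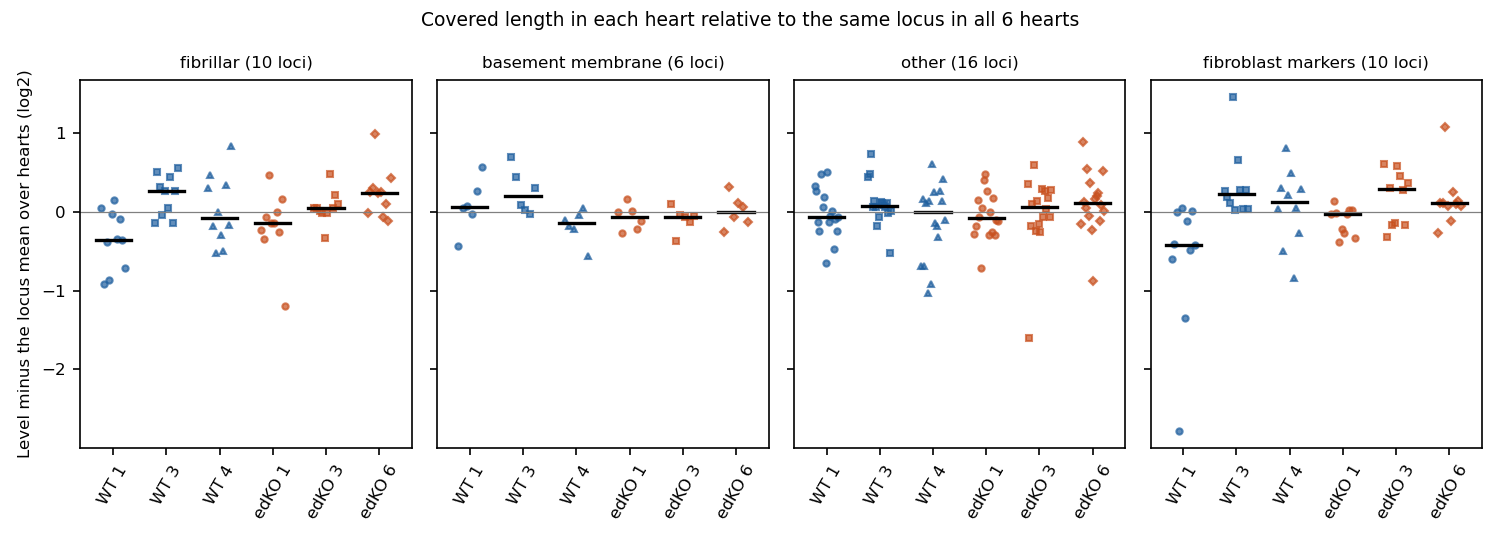
Log2 level of each locus in each heart minus its mean over 6 hearts, for fibrillar, basement membrane and other collagens and for non-collagen fibroblast markers; black bars are medians over loci. The median in WT 1 is low for fibrillar collagens (-0.35) and fibroblast markers (-0.42) and not for basement membrane collagens (0.06).

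Genes that make, bind, sense and degrade collagen were taken from lists chosen for their roles, and none of their 97 tested members passed the limma test in either direction. Of 21 genes for modification and folding of the chains, 0 were lower and 0 higher, with a median log2 difference of 0.11. Those with the smallest unadjusted p were the prolyl 3-hydroxylase genes P3h1 (0.26, SE 0.13) and P3h2 (0.25, SE 0.14), the chaperone gene Fkbp10 (-0.17, SE 0.11) and Crtap (-0.14, SE 0.11), a partner of P3h1. Of 12 tested genes for processing and cross-linking, 0 passed, with a median of 0.07. Pcolce2, an enhancer of the protease that trims the C-propeptide of procollagen, came nearest of all genes on these lists. It had 9167, 8540 and 8524 bp in WT 1, 3 and 4 and 5037, 4561 and 5405 bp in edKO 1, 3 and 6. Every edKO heart was lower than every WT heart (5.76% of all loci), with a log2 difference of -0.70 (SE 0.11, limma adjusted p = 0.0987). Over the alternatives its adjusted p ran from 0.0597 to 0.79 and its difference stayed below 0. Adamts3, a protease for the N-propeptide, had 4074, 4469 and 3531 bp in the WT group versus 2743, 2015 and 3163 bp in the edKO group (-0.50, SE 0.12, limma adjusted p = 0.277). Adamts14 (0.23, SE 0.19), of the same family, and the lysyl oxidase-like gene Loxl3 (0.14, SE 0.15) had the smallest p on the higher side.

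Of 13 tested fibril-binding matrix genes 0 passed, and 11 estimates were above 0, with a median of 0.13. These were led by Fbln2 (0.29, SE 0.15) and Tnxb (0.26, SE 0.20), and the lower ones by the small proteoglycan genes Ogn (-0.21, SE 0.25) and Fmod (-0.19, SE 0.42). This list shares Dcn, Lum and Fbln1 with the fibroblast markers, and its median level in WT 1 was -0.28. Of 8 tested receptor genes 0 passed (median 0.03), with Itga2 (0.28, SE 0.22) and Ddr1 (0.07, SE 0.10) on the higher side. Itga1, the integrin chain that binds type IV collagen, had -0.22 (SE 0.13), and its partner Itgb1 -0.10 (SE 0.14).

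Of 8 tested genes of collagen-degrading proteases and their inhibitors 0 passed (median -0.03). Ctsk, the collagen-cleaving cathepsin K (0.29, SE 0.15), and Timp2 (0.14, SE 0.23) had the smallest p on the higher side, and Fap (-0.65, SE 0.66) and Mmp15 (-0.12, SE 0.13) lay on the lower side. Of 14 tested basement membrane partners 0 passed (median -0.03), with the laminin genes Lamb3 (-0.23, SE 0.13), Lamc3 (-0.52, SE 0.30) and Lama4 (0.10, SE 0.13) and the perlecan gene Hspg2 (0.07, SE 0.09) named by smallest p. Lamc3 passed with a replicate block (limma adjusted p = 0.0486), a fit that leaves 1 residual degree of freedom. Of 21 fibroblast regulators 0 passed (median -0.02). Tgfb2, a ligand that drives collagen genes in fibroblasts, had 9090, 9591 and 7928 bp in the WT group versus 6619, 5889 and 7537 bp in the edKO group. All its edKO hearts lay below its WT hearts (-0.32, SE 0.11, limma adjusted p = 0.59). Of the 97 tested genes on these lists, this held after centring for Adamts3, Pcolce2 and Tgfb2 (3.09%, against 5.76% of all loci), and the reverse for 0 (7.11% of all loci). The receptor gene Tgfbr1 (0.37, SE 0.21) and the TGF-β target gene Ccn2 (0.15, SE 0.13) were on the higher side and Runx1 (-0.64, SE 0.29) on the lower.

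The series as a whole limits these values in the following ways. The lists held 47972 to 67708 distinct regions with a median width of 533 to 1011 bp, and sequencing depth per heart is unknown. The covered length came to 59.1 to 68.3 Mb in WT and 47.9 to 66.6 Mb in edKO hearts. The targeted loci stayed marked: Rxra had 11157, 15540 and 18868 bp in the WT group versus 15107, 8682 and 18432 bp in the edKO group. Rxrb had 5138, 5143 and 5323 bp in the WT group versus 5250, 4246 and 5226 bp in the edKO group, and a histone mark in whole hearts does not check the deletion. By the series description each heart is a separate biological replicate.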

How the data were processed

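H3K27ac ChIP-seq of 3 WT and 3 edKO hearts at postnatal day 0 was analysed; the 6 input samples, which come with no peak list, were not used. The authors deposited 1 narrowPeak list per heart, so peaks were called per heart. Cutadapt, BWA, SAMtools and MACS2, and the builds mm10 and GRCm38, are listed in the submitters' processing notes. Versions, settings and the role of the inputs are not given in the sources used. Each heart was fixed with DSG and FA and its chromatin sonicated, per the labels. The deposited signal column is a ratio, the fold enrichment, and the deposited −log10 p and −log10 q columns are the authors' own; they ranked or filtered peaks within a list. A fold percentile is the percent of a list's regions with a fold at or below that of the region.

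Entries of the same region were merged. Called bp were summed per gene body plus 10 kb on each side (RefSeq, GRCm38.p6), and log2(bp + 200) was taken. From it the heart's own mean over genes with called length in every heart was subtracted. Loci with a mean of at least 500 bp entered a limma fit (limma 3.58.1, R 4.3.3; trend and robust options, genotype as the only term, Benjamini-Hochberg over all loci). Fold changes on this scale understate changes at loci with little called length. The fit was checked on simulated data of the edKO and WT hearts over 14317 loci. Of 53 loci given a log2 difference of -1, 67.9% were called, and of 48 given -2, 75% were called, beside 6 false calls. The changed loci were drawn from all tested loci. The rate at loci with the wider spread of the collagens was not counted. The tables were made with Python 3.11.15, numpy 2.4.6 and pandas 2.3.3, and the plots with matplotlib 3.10.9. All genes of the lists were matched by symbol.

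The named genes are the 5 collagen loci with the smallest unadjusted p in each direction, the 4 per class with the largest share of window covered, the 3 with the widest spread in each genotype, members without a peak, and the 2 pathway genes per list and direction with the smallest unadjusted p. Other genes were picked to show a range, with their values known. The members and lists were chosen with earlier results of these data known.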

Additional observations from a re-analysis of the deposited data

How the results depend on the processing

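No collagen locus passed the limma test in either direction under any of 19 alternatives, and over these the smallest limma adjusted p of a collagen locus ran from 0.262 to 1.0. Of 189 values of the named collagen loci 184 kept their direction and side of the threshold, and of 512 values of the named pathway genes 487 did. For every change listed here the cause was not tested. With the gene body alone the median log2 difference was -0.070 over all collagens and -0.070 over the other class, whose median share was 2.17%. There the median fold percentile was 74.0 for basement membrane and 69.5 for other members. With lists of equal length the basement membrane difference was 0.12, and the percentiles were 67.9 (fibrillar), 81.5 (basement membrane) and 69.3 (other). With stricter lists they were 65.6, 79.2 and 65.3, and the basement membrane share was 2.83%. With nearest genes alone the share of the other class was 2.18% and the percentiles 74.5 (fibrillar), 74.0 (basement membrane) and 67.2 (other). The other class had percentile 72.1 with 5 kb flanks and 72.9 with no filter. The fibrillar share was 5.19% for loci of at least 2000 bp. With members at 0 bp included, an alternative chosen after seeing the data, the share of the other class was 1.45%. Leaving out 1 heart, the basement membrane difference ran from -0.20 (without WT 4) to 0.0046 (without WT 3).

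The sign turned for single genes. By number of regions it was 0.0066 for Col23a1, 0.31 for Col27a1, -0.058 for Col3a1, 0.040 for Crtap, 0.11 for Adamts3, -0.15 for Loxl3, 0.15 for Ogn, 0.48 for Fmod, -0.044 for Ddr1, -0.43 for Ctsk, 0.0066 for Lamb3, -0.0009 for Lama4 and -0.19 for Ccn2. With the gene body alone it was 0.014 for Fkbp10 and -0.11 for Adamts14, with nearest genes 0.029 for Fmod, with equal lists 0.038 for Itgb1, with stricter lists 0.13 for Itgb1 and -0.33 for Itga2, and without centring -0.0148 for Ddr1 and -0.0185 for Hspg2. Leaving out 1 heart, Col13a1 ran from -1.20 to 0.052 (without edKO 3), Ogn from -0.37 to 0.069, Fmod from -0.35 to 0.061 and Fap from -1.08 to 0.094 (each without edKO 6). Among collagens that kept their sign, Col3a1 ran from 0.09 (without WT 4) to 0.56 (without WT 3), Col5a2 from 0.04 (without WT 1) to 0.35 (without WT 3), Col6a3 from 0.05 (without WT 4) to 0.34 (without edKO 1) and Col27a1 from -0.31 (without edKO 6) to -0.03 (without edKO 3). Timp2 ran from -0.10 (without WT 1) to 0.37 and Lama4 from -0.029 (without edKO 1) to 0.18. Over all loci the number called lower was 15, but 6 with equal lists, 9 with stricter lists, 7 with nearest genes, 8 by number of regions, 10 without centring and 0 to 9 with 1 heart left out.

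The genotypes share only the numbers 1 and 3, and nothing says that these pair the hearts; the deviations of the same-numbered hearts correlated at 0.18 and 0.03. With the replicate block and its 1 residual degree of freedom, 0 collagen loci and 90 of all loci were called lower, Col6a3 came to -0.033 and Itgb1 to 0.055, and Lamc3 passed (-0.98, limma adjusted p = 0.0486). Sequencing depth per heart is unknown, so a region absent from a list may lie just under the caller's threshold.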

Other observations

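The 2 collagen genes on the X chromosome, Col4a5 and Col4a6, encode type IV chains and are outside the autosomal rule. Col4a5 had 3771, 2789 and 1603 bp of called length in WT 1, 3 and 4 and 2928, 2326 and 2405 bp in edKO 1, 3 and 6. Its log2 difference was 0.07 (SE 0.24, limma adjusted p = 0.96). Col4a6 had 2491, 2753 and 1603 bp in the WT group versus 2302, 1771 and 2175 bp in the edKO group, with a log2 difference of -0.01 (SE 0.15, limma adjusted p = 0.991). WT 4 was the lowest heart at both, and the genotypes overlapped. Both genes had 1603 bp in WT 4, so their windows may hold the same regions there, which was not checked.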
